A study of Rattus norvegicus with 7 samples.

Results

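The cytosolic and nuclear Hsp70 and Hsp110 genes, a small family of molecular chaperones, were followed in rat cells on 3 culture surfaces. Members were chosen by gene symbol, and all 9 of them (Hspa1a, Hspa1b, Hspa1l, Hspa2, Hspa8, Hspa14, Hspa4, Hspa4l and Hsph1) were found among the 17147 symbols listed for each library. The cells were rMSCs, primary mesenchymal stem cells grown from rat bone marrow, of which 20000 were placed on each surface. They were isolated and grown in serum-containing medium, and the medium used on the surfaces for sequencing is not named. The surfaces were ISB-P film (a polycaprolactone-based polyurethane that contains propoxylated isosorbide), PCL film (plain polycaprolactone) and TCP (uncoated tissue culture plastic), the films being 16 mm wide and sterilized with ethylene oxide gas. RNA was taken 4 h after seeding, and 3 ISB-P, 3 PCL and 1 TCP libraries were analysed. The methods describe isolation of the cells from a male Sprague-Dawley rat aged 6 weeks, though a later sentence there speaks of rats. Which isolate fed each library is not said, so the replicates cannot be taken to stand for separate animals. Whether they were separate cultures is not said, and the p-values measure only the spread between these libraries, which may be technical.

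Hsp70 proteins bind exposed hydrophobic stretches of unfolded proteins and release them in a cycle driven by ATP. J-domain proteins deliver the client and start ATP hydrolysis, and nucleotide exchange factors, among them the Hsp110 proteins and several Bag proteins, replace ADP by ATP so that the client is released. Hspa8 (Hsc70) is the form made by nearly all cells without stress, whereas Hspa1a and Hspa1b are kept low in resting cells and are raised by the heat shock factor Hsf1 when unfolded proteins accumulate. The study used these libraries, along with qRT-PCR, knockdown of Hspa1a and blocking of integrins, to ask why cells attach better to ISB-P than to PCL. Here inducible and constitutive members are compared by transcript level, and their part in attachment was not tested.

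Values were read as FPKM, which scales fragments by transcript length and library size, so that levels of different genes may be compared per length. They summed to between 539393 and 660124 per library, and these sums say nothing of sequencing depth. Depth is unknown, so neither counting intervals nor detection limits are given. Col1a2 and Hprt1, genes that these cells use, were listed at 0 in all 7 libraries, so a 0 may be a failed estimate, but no member was listed at 0 in any library. The first principal component of the film libraries, with 63.8% of the variance, set replicate 1 of both films apart from replicate 3. The replicate number was also used as a block in an alternative fit. Of 11 mesenchymal markers all but Col1a2 were detected, and they summed to 8693 to 9359 FPKM on PCL, 8582 to 8861 on ISB-P and 16423 on TCP. Macrophage markers (7 of 8 listed) summed to 39.9 to 47.4 FPKM on PCL and 40.1 to 46.6 on ISB-P but to 131.9 on TCP, no endothelial marker was above 0.365 FPKM, and Hba1 and Hbb were listed at 0 throughout. No gene of these 4 marker lists was called between the films in limma, but with the replicate block the mesenchymal Pdgfrb (log2 fold change -0.76, adjusted p = 1.41e-04, against 0.0510 without it) and the macrophage Cd14 (-0.42, 0.00663) were lower and the macrophage Lyz2 (0.27, 0.0299) was higher on ISB-P. Their part in the results was not tested.

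Most of the family was higher on ISB-P than on PCL. Of the 7 members that reached 1 FPKM in every film library, 4 rose and none fell in limma with an adjusted p under 0.05 (and none fell with an unadjusted p under 0.05 either): the inducible Hspa1a and Hspa1b, the constitutive Hspa8 and the Hsp110 gene Hsph1. Hspa1l passed the filter on low values only through ISB-P, where it was high, and is given by its values, while Hspa4l did not pass it. Among all 9467 tested genes 1.10% were called higher and 0.623% lower, that is 104 and 59 genes, or 70 and 70 once libraries were scaled to a common total. Testing was limited to genes that reached 1 FPKM in 3 or more film libraries, and used limma on log2(FPKM + 1) with two-sided p-values adjusted over all these genes by the Benjamini-Hochberg method. The median log2 fold change of these 7 members was 1.40, and that of all tested genes 0.02. When the fit included the replicate number as a block, 5 of the 7 were higher and 1 lower, against 13.0% and 11.4% of all tested genes. The study names limits of more than 2-fold, p below 0.1 and normalized values over 16, and these, applied here to the unadjusted p and to the mean of either film, were passed by 4 members, all higher, against 0.613% of tested genes higher and 0.0739% lower. Members do not stand for replicates of a film, and in bulk RNA a change in the number of expressing cells cannot be told apart from a change in RNA per cell.

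**Figure D1:**
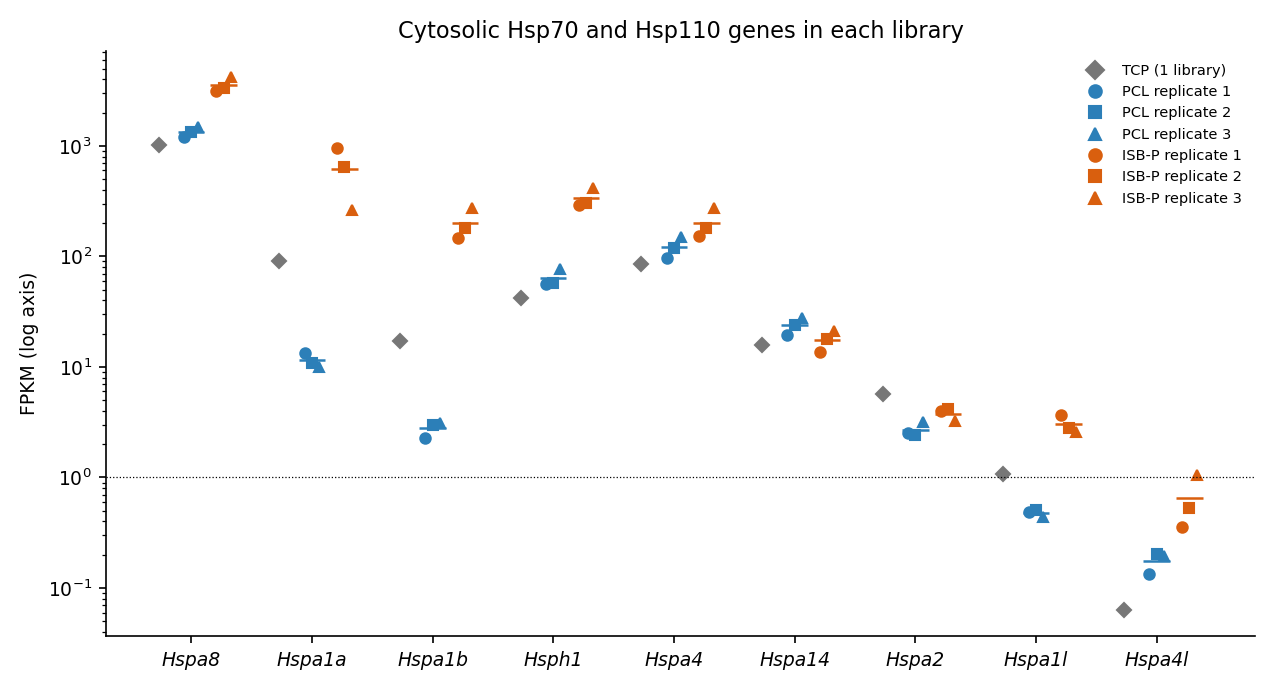
FPKM of the 9 members (log axis) in each library, with TCP as diamonds, PCL in blue and ISB-P in orange, marker shape giving the replicate number, short lines the mean of 3 libraries and the dotted line 1 FPKM. Hspa1a and Hspa1b show the widest gap between the films, and Hspa14 is the only member whose film libraries overlap.

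Both inducible genes were far lower on PCL than on ISB-P. In replicates 1, 2 and 3, Hspa1a measured 13.4, 10.9 and 10.1 FPKM on PCL against 954, 646 and 263 on ISB-P, with 91.1 on TCP. Hspa1b was 2.27, 3.00 and 3.12 FPKM on PCL, 146, 181 and 276 on ISB-P, and 17.1 on TCP. For both genes every ISB-P library lay above the TCP library, which in turn lay above every PCL library. Their log2 fold changes between the films, 5.47 for Hspa1a (standard error 0.44, adjusted p = 0.00361) and 5.69 for Hspa1b (standard error 0.25, adjusted p = 8.79e-04), ranked 2 and 1 by size among all tested genes in limma.

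The division between these paralogs differed from library to library. Hspa1a was 6.55, 3.56 and 0.955 times Hspa1b in ISB-P replicates 1, 2 and 3, and 5.91, 3.62 and 3.23 times in the same PCL replicates. On TCP it was 5.31 times. The ratio was thus highest in replicate 1 and lowest in replicate 3 on both films. Hspa1a and Hspa1b are neighbours on chromosome 20 in the GRCr8 assembly and code for nearly the same protein, and how the authors' counting divided reads that match both is not given in the sources used here, so each level is uncertain. Summed into 1 feature they had a log2 fold change of 5.70 (standard error 0.26, adjusted p = 9.89e-04 in limma). The sum was 15.7, 13.9 and 13.2 FPKM on PCL, 1099, 828 and 538 on ISB-P and 108 on TCP.

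Hspa8, the constitutive form, was by far the most abundant member on every surface. Its level in replicates 1, 2 and 3 was 1191, 1335 and 1478 FPKM on PCL and 3105, 3351 and 4162 on ISB-P, and it was 1021 on TCP. The film libraries did not overlap, and TCP was below all of them. The log2 fold change between the films was 1.40 (standard error 0.15, adjusted p = 0.00831 in limma), which is 2.64-fold. Without PCL replicate 2 the adjusted p was 0.0841, and without ISB-P replicate 2 it was 0.0727, with log2 fold changes of 1.40 and 1.43.

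Hspa14, a distant Hsp70 relative that works at the ribosome with Dnajc2, was the exception. PCL replicates 1, 2 and 3 had 19.3, 24.0 and 27.9 FPKM, those of ISB-P had 13.8, 17.7 and 21.1, and TCP had 15.8. The film libraries overlapped, but within each replicate number ISB-P was the lower, at 0.713, 0.737 and 0.756 of PCL. In all 3 pairs 27.7% of tested genes were lower on ISB-P. The log2 fold change of -0.42 (95% interval -0.90 to 0.06, adjusted p = 0.505) did not pass in limma, but did with the replicate block (standard error 0.07, adjusted p = 0.00468). Its partner at the ribosome, Dnajc2, had a log2 fold change of 0.15 (adjusted p = 0.939 in limma).

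Of the Hsp110 genes, the heat-inducible Hsph1 had the highest fold change among those tested. PCL replicates 1, 2 and 3 held 56.1, 57.1 and 76.9 FPKM of Hsph1, the ISB-P replicates 289, 301 and 419, and TCP 41.6. The lowest ISB-P library was above the highest PCL library, and TCP was below both films. In limma the films differed by 2.38 on the log2 scale, or 5.22-fold (standard error 0.20, adjusted p = 0.00361), and Hsph1 was the member whose ISB-P to PCL ratio varied least between pairs, at 5.15, 5.28 and 5.44.

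The constitutive Hsp110 gene Hspa4 had 96.0, 118 and 148 FPKM in replicates 1, 2 and 3 of PCL, 152, 179 and 275 in those of ISB-P, and 86.2 on TCP. The films did not overlap, though ISB-P replicate 1 was only just above PCL replicate 3. The log2 fold change of 0.72 (95% interval 0.10 to 1.33, adjusted p = 0.319) did not pass in limma, and with the replicate block it did (adjusted p = 3.83e-04). Hsph1 was 0.584, 0.483 and 0.519 times Hspa4 in the PCL libraries, 0.483 times on TCP, and 1.90, 1.68 and 1.52 times in ISB-P replicates 1, 2 and 3, so the more abundant of these genes differed between ISB-P and the other surfaces.

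Hspa4l, the third Hsp110 gene, stayed near or below 1 FPKM. It was 0.135, 0.202 and 0.195 FPKM on PCL, 0.354, 0.526 and 1.06 on ISB-P and 0.0639 on TCP, and it did not pass the filter on low values and was not tested.

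The remaining members, Hspa1l and Hspa2, are best known from male germ cells and were low here. For Hspa1l the values of replicates 1, 2 and 3 were 0.492, 0.513 and 0.442 FPKM on PCL and 3.68, 2.83 and 2.56 on ISB-P, with 1.07 on TCP. Every ISB-P library was above every PCL library, with a log2 fold change of 1.43 on log2(FPKM + 1). No PCL library reached 1 FPKM, so the filter let this gene in only for its ISB-P level, and no limma p is given for it. In the GRCr8 gene table Hspa1l overlaps Hspa1a on the opposite strand. The submitters' notes name the older rn5 build, whose gene models were not examined here. Whether the authors' counting used strand is not given either, so that reads of any overlap cannot be told apart. Hspa1l was 3.67% to 4.73% of the Hspa1a level on PCL, 0.386% to 0.973% on ISB-P and 1.17% on TCP. The part of Hspa1a reads in the Hspa1l value was not tested.

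Hspa2 was 2.52, 2.44 and 3.17 FPKM on PCL, 3.96, 4.14 and 3.23 on ISB-P and 5.75 on TCP, its highest library. Its films were separated only by the gap between 3.17 and 3.23 FPKM, and the log2 fold change of 0.36 (95% interval 0.05 to 0.68) had an adjusted p of 0.326 in limma and of 0.0590 with the replicate block.

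**Figure D2:**
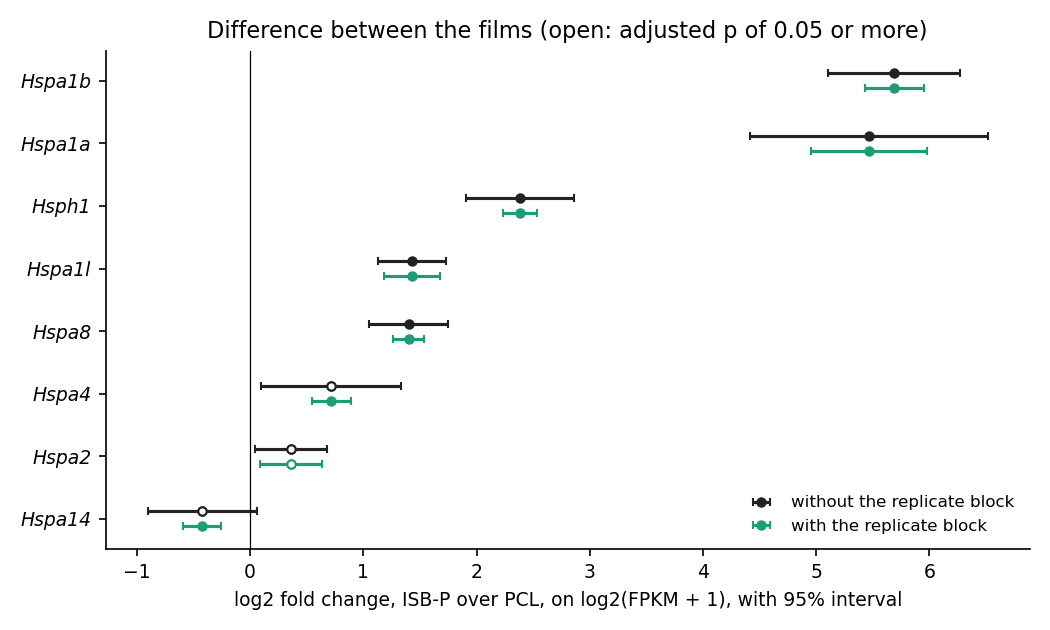
Log2 fold change of ISB-P over PCL for the 8 members that passed the filter on log2(FPKM + 1), with 95% intervals, without the replicate block in black and with it in green. Open points have an adjusted p of 0.05 or more, which without the block are Hspa4, Hspa2 and Hspa14 and with it Hspa2 alone. Hspa1l is drawn with filled points, but it passed the filter only through ISB-P. Its points and intervals are therefore not read as a test, and it is not counted as called.

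In all, 8 of the 9 members had ISB-P libraries that lay wholly above the PCL libraries, among them Hspa4l, which was not tested. Such a separation was found for 8.17% of tested genes, and the reverse, which no member showed, for 9.54%. The two-sided exact permutation test on 3 against 3 libraries gave p = 0.1 for these 8 members, the smallest p it allows, and p = 0.2 for Hspa14. Within pairs of the same number the ISB-P to PCL ratio was steady for Hspa8, at 2.61, 2.51 and 2.82, and for Hspa4, at 1.58, 1.52 and 1.86. The ratio of Hspa1a, at 71.2, 59.5 and 26.1, was 2.73 times as high in replicate 1 as in replicate 3, and that of Hspa1b was 64.2, 60.5 and 88.4. Hspa8, Hspa14, Hspa4, Hsph1 and Hspa1b each had their lowest value in replicate 1 and their highest in replicate 3 on both films, whereas Hspa1a had the reverse on both.

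The balance between inducible and constitutive Hsp70 was then followed within each library, where scaling between libraries has no part. Hspa1a and Hspa1b together made up 1.30%, 1.03% and 0.885% of the summed FPKM of Hspa1a, Hspa1b and Hspa8 in PCL replicates 1, 2 and 3. They made up 26.1%, 19.8% and 11.5% in ISB-P replicates 1, 2 and 3 and 9.59% on TCP. The mean share was 1.07% ± 0.210 (SD, n = 3) on PCL and 19.1% ± 7.37 (SD, n = 3) on ISB-P. TCP lay between the films, close to ISB-P replicate 3. Since the members were chosen with results known, no test is given for this share.

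**Figure D3:**
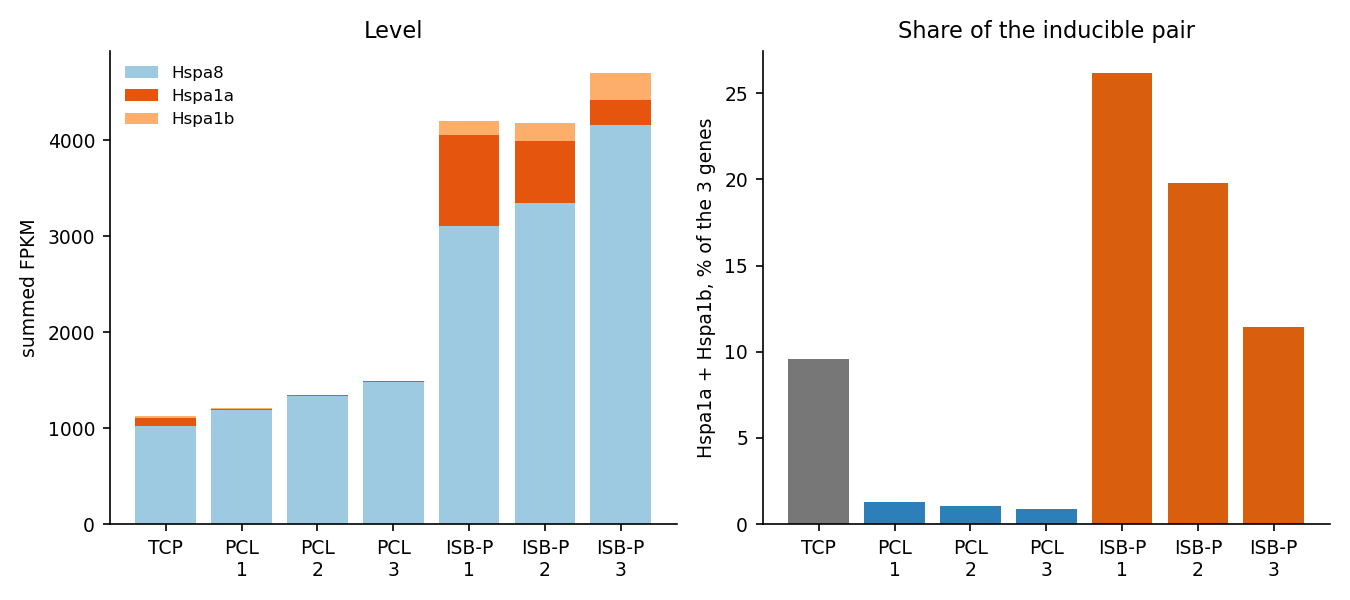
Summed FPKM of Hspa8, Hspa1a and Hspa1b in each library (left) and the percentage of that sum made up by Hspa1a and Hspa1b (right), with numbers under the bars giving the replicate. Hspa8 holds most of each bar on the left, and the share of the inducible genes ranges from 0.885% to 1.30% on PCL, is 9.59% on TCP and ranges from 11.5% to 26.1% on ISB-P.

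Although the inducible genes changed by the largest factor, Hspa8 carried most of the added transcript. The 6 Hsp70 members (all but the Hsp110 genes) summed to 1376 ± 147 FPKM (SD, n = 3) on PCL, 4385 ± 296 (SD, n = 3) on ISB-P and 1151 on TCP. Of the difference of 3010 FPKM between the film means, Hspa8 made up 73.3%, Hspa1a 20.3% and Hspa1b 6.58%. The summed Hsp70 level was 3.44, 3.06 and 3.10 times as high on ISB-P as on PCL within replicates 1, 2 and 3. The summed Hsp110 level was 2.90, 2.74 and 3.08 times as high, so that Hsp70 exceeded Hsp110 by 6.76 to 8.08 times on PCL and 6.80 to 9.58 times on ISB-P, ranges that overlap. All 9 members took 0.254% to 0.292% of the FPKM of a library on PCL, 0.787% to 0.821% on ISB-P and 0.237% on TCP.

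The order of the levels also differed between the surfaces. On PCL it was Hspa8, Hspa4, Hsph1, Hspa14 and Hspa1a, with no overlap between neighbours, followed by Hspa1b and Hspa2, which overlapped, and then Hspa1l and Hspa4l. On ISB-P, Hspa8 was followed by Hspa1a and Hsph1, which overlapped, by Hspa4 and Hspa1b, which overlapped each other but lay below Hsph1, and then by Hspa14, Hspa2, Hspa1l and Hspa4l, of which Hspa2 and Hspa1l overlapped. On TCP the order was Hspa8, Hspa1a, Hspa4, Hsph1, Hspa1b, Hspa14, Hspa2, Hspa1l and Hspa4l. Hspa1a was thus above Hspa4 on TCP and in ISB-P replicates 1 and 2, and below it in ISB-P replicate 3 and in every PCL library.

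Against TCP the members lay on either side of the PCL libraries. Hspa8, Hspa14, Hspa4, Hspa4l and Hsph1 were lower on TCP than in every PCL library, and Hspa1a, Hspa1b, Hspa1l and Hspa2 were higher. Hspa4l was at most 0.202 FPKM in these libraries. The share of all tested genes on either side was not counted, so these positions are given as values only. Both sets of members were the same with quantile normalization, with a common total and with upper quartile scaling. Hspa1a was 7.96 times and Hspa1b 6.14 times as high on TCP as in the PCL mean, while Hspa8 was 0.765 times and Hsph1 0.657 times as high. With 1 FPKM added to each value, the ISB-P mean was over 2-fold above TCP for 5 members (Hspa1a, Hspa1b, Hspa8, Hspa4 and Hsph1), against 8.98% of tested genes, and over 2-fold below TCP for none, against 4.28%. The PCL mean was over 2-fold below TCP for Hspa1a and Hspa1b, against 3.04% of tested genes, and over 2-fold above it for no member, against 5.56%. The fold above TCP was 6.75 for Hspa1a, 11.1 for Hspa1b, 7.91 for Hsph1, 3.47 for Hspa8 and 2.33 for Hspa4 on ISB-P. A single TCP library allows no test, and its macrophage and mesenchymal marker sums were also above those of both films. Most of its mesenchymal sum was Col1a1 (10406 FPKM) and Lum (3423). Thy1, Eng, Vcam1 and Dcn were also above both films on TCP, while Nt5e, Cd44, Itgb1 and Pdgfrb lay within the PCL range. The part of these marker differences in the values of the members was not tested. The comparisons of ISB-P with PCL and with TCP share the ISB-P libraries.

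Upstream sequence was examined for the heat shock element, the site of Hsf1, which consists of inverted repeats of GAA. RefSeq windows of 250 bases before the start (GRCr8) were found for 8 of the 9 members and not for Hspa1b. The element was searched with 2 units as TTCNNGAA and GAANNTTC, each of which is its own reverse complement, and with 3 units as TTCNNGAA followed by NNTTC or, for the other strand, GAANNTTC followed by NNGAA. Every 3-unit match thus contains both 2-unit forms. The 3-unit form was found upstream of Hspa8 and Hsph1, that is in 2 of the 8 windows, against 0.397% of the 7566 windows of tested genes and 0.663% of all 33469 windows. Of the other members, Hspa2 held only a TTCNNGAA match, as TTCCAGAA, and the windows of Hspa1a, Hspa1l, Hspa14, Hspa4 and Hspa4l held neither 2-unit form. The 2-unit forms were found in 10.1% of the windows of tested genes. Windows were found for 23 of the tested Hsp70 partner genes described below, and 0 of these held the 3-unit form. The window of Hspa1a lies within the Hspa1l gene, and a window without these letters says nothing of the factor or of sites elsewhere. The 250 bases before the start are shown for Hspa8 (chr8:50080264-50080513, + strand) and Hsph1 (chr12:10427118-10427367, + strand), the called members with a 3-unit match. They are also shown for Hspa14 (chr17:79637856-79638105, + strand), the member that was lower on ISB-P within every pair. Like Hspa14, the windows of Hspa1a, Hspa1l, Hspa4 and Hspa4l held no match, yet the ISB-P libraries of these genes lay wholly above the PCL libraries. Capitals mark matches to the 2-unit and 3-unit forms.
Hspa8: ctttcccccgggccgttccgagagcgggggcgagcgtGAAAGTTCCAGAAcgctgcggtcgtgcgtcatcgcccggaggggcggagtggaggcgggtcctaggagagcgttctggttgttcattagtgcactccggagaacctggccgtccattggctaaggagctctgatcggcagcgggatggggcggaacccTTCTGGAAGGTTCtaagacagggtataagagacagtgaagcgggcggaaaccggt
Hsph1: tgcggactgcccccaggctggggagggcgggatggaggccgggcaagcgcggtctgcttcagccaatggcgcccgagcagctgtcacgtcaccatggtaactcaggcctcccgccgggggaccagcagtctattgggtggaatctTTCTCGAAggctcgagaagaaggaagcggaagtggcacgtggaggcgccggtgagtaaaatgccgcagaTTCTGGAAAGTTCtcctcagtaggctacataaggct
Hspa14: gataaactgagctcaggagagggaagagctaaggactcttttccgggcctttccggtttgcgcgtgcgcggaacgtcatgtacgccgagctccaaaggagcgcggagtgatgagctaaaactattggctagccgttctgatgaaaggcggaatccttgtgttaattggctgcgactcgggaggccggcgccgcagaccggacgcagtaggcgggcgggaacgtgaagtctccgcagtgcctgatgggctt
The matches of Hspa8 are GAAAGTTCCAGAA, whose first base is 213 bases before the start, and TTCTGGAAGGTTC, at 55 bases. Hsph1 has TTCTGGAAAGTTC at 36 bases and the 2-unit match TTCTCGAA at 105 bases. These are descriptions of the letters, and binding was not measured here. A link between the matches and the levels on the films was not tested.

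The pattern over the 7 libraries was compared with those of 4796 other tested genes whose mean reached 16 FPKM, by Pearson's r on log2(FPKM + 1). The genes nearest to Hspa1a were Parp3 (r = 0.994), the small heat shock gene Hspb1 (0.988), the Hsp70 cochaperone Bag3 (0.987) and the stress transcription factor Ddit3 (0.980). Nearest to Hspa1b were Lrrc8c (0.998), Hbegf (0.994), Insig1 (0.992) and Jag1 (0.987). Nearest to Hspa8 were Enc1 (0.996), Errfi1 (0.994), Ifrd1 (0.994) and Oser1 (0.993), and Hsph1 shared Ifrd1 (0.993), Enc1 (0.989) and Errfi1 (0.988) with it, beside Hspb8 (0.989). Nearest to Hspa4 were Hnrnpdl (0.997), Lims1 (0.996), Pip5k1a (0.995) and the Hsp90 cochaperone Chordc1 (0.994). Hspa8 and Hsph1 were closest to each other (r = 0.998), while Hspa1a and Hspa4 were far apart (0.506) and Hspa1a and Hspa1b correlated at 0.950. The points share their libraries, and with 7 of them in 3 groups such values are high for many genes.

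Partner genes of Hsp70 were taken from a list of 32 symbols, of which 31 were listed and all of these were tested. Among them 5 rose on ISB-P and none fell in limma (1, Bag4, was lower with an unadjusted p under 0.05), with a median log2 fold change of 0.23 against 0.02 for all tested genes. As shares of the 31 these stand against 1.10% of all tested genes called higher and 0.623% lower. With the replicate block 15 were higher and 1 lower, against 13.0% and 11.4% of all tested genes. Without single libraries the number called higher fell to between 1 and 4, with 1 left without any of the PCL replicates or without ISB-P replicate 2.

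The highest fold changes among the partners were those of J-domain genes. Dnaja1 and Dnajb1, which deliver clients to Hspa8 and Hspa1a, were the only called genes of 11 without the block. Dnajb1 held 36.0, 37.8 and 34.3 FPKM on PCL, 136, 138 and 127 on ISB-P and 34.2 on TCP (log2 fold change 1.86, adjusted p = 0.00150 in limma), and was called whichever film library was left out. Dnaja1 was 106, 142 and 204 FPKM on PCL and 447, 558 and 987 on ISB-P (log2 fold change 2.10, adjusted p = 0.0426 in limma). For both genes the film libraries did not overlap. Dnajb4 and Dnaja4 had log2 fold changes of 0.87 and 0.85 (adjusted p = 0.333 and 0.0723 in limma), and with the block, under which 13.0% of all tested genes were higher, 6 of the 11 were.

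Of 7 nucleotide exchange factors outside the Hsp110 genes, Bag3, which links Hsp70 to autophagy and is itself heat-inducible, was called. It held 117, 105 and 89.0 FPKM on PCL, 373, 311 and 230 on ISB-P and 156 on TCP, and its log2 fold change was 1.53 (adjusted p = 0.0213 in limma). Bag1, Bag5, Bag6 and Hspbp1 had log2 fold changes of 0.00, 0.22, -0.12 and 0.04, and Bag4, at -0.36, was lower only with the block (adjusted p = 0.0155, against 0.329 without it). Bag2 had a log2 fold change of 0.39 (adjusted p = 0.488 in limma, or 0.00744 with the block).

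Among 9 genes of transfer to Hsp90 and of quality control, Stip1 (Hop), which joins Hsp70 to Hsp90, and Hsp90ab1 were called. Stip1 held 90.3, 86.8 and 93.2 FPKM on PCL against 167, 157 and 190 on ISB-P, a log2 fold change of 0.92 (adjusted p = 0.0220 in limma). Hsp90ab1, the constitutive Hsp90, had a log2 fold change of 0.93 (adjusted p = 0.0405). Hsp90aa1, the inducible Hsp90, Chordc1 and Ahsa1 had log2 fold changes of 1.70, 1.37 and 0.69 that did not pass (adjusted p = 0.0922, 0.347 and 0.0832 in limma) but did with the block. Stub1 (CHIP), the ubiquitin ligase that marks Hsp70 clients for degradation, had one of -0.08 (95% interval -0.59 to 0.43). With the block 7 of the 9 were higher, against the same 13.0% of all tested genes. St13 (Hip), which slows client release, had a log2 fold change of 0.58 (adjusted p = 0.440 in limma, or 0.00104 with the block).

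None of 4 genes of heat shock factors and their regulators was called in limma, with or without the block, and none had an unadjusted p under 0.05. Hsf1 was 21.4, 22.5 and 20.0 FPKM on PCL, 22.7, 22.7 and 17.8 on ISB-P and 18.4 on TCP (log2 fold change -0.02, 95% interval -0.36 to 0.32). Its transcript level does not show how active the factor is, which is known to be set after translation.

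**Figure D4:**
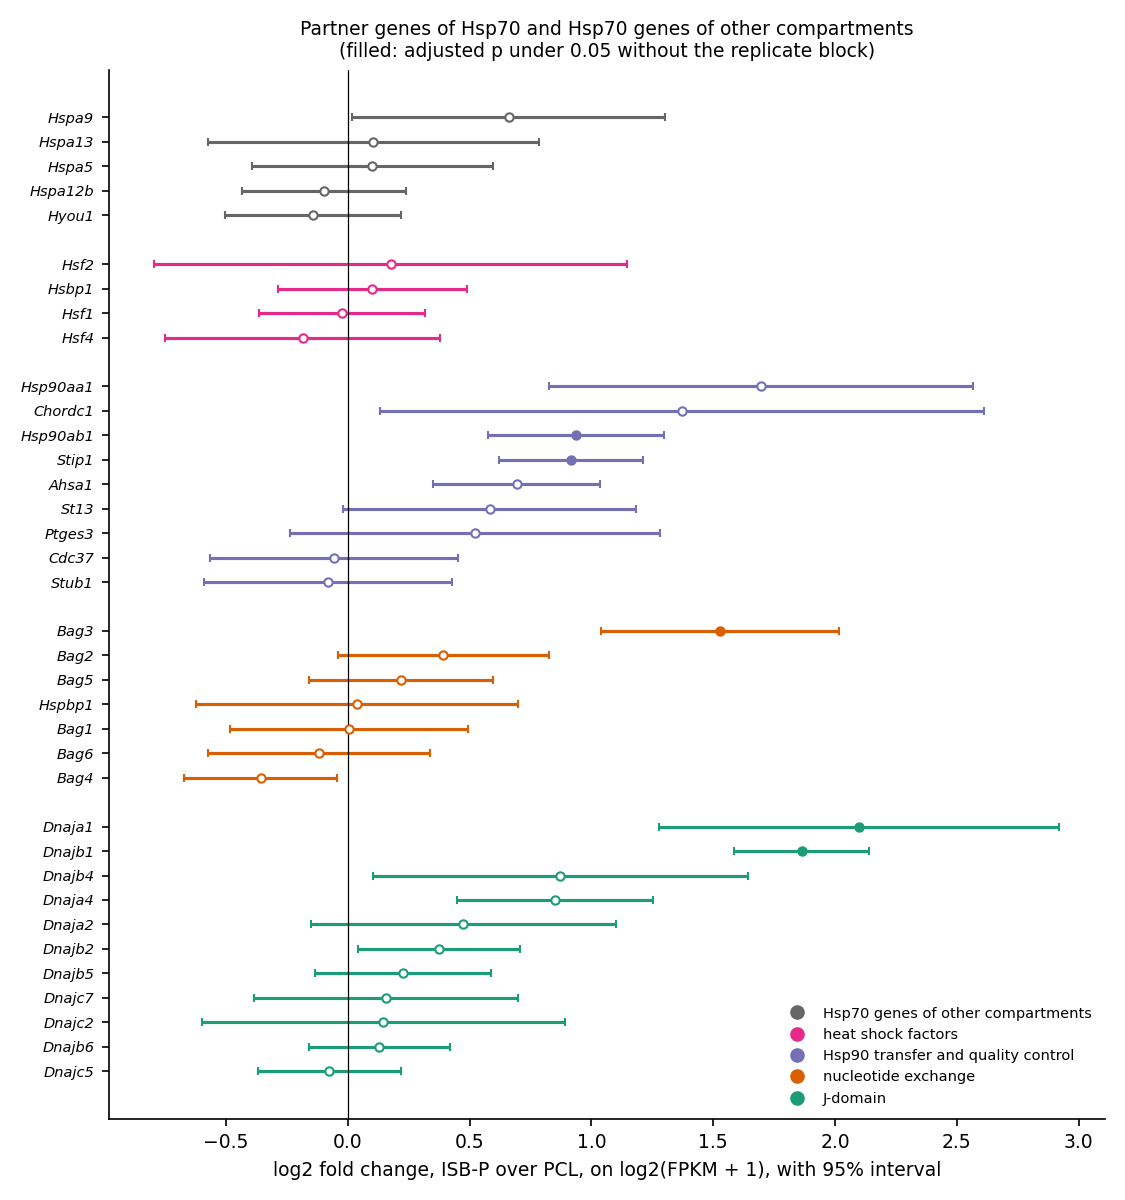
Log2 fold change of ISB-P over PCL on log2(FPKM + 1) with 95% intervals for 31 partner genes and 5 Hsp70 genes of other compartments, colored by group. Filled points, called without the replicate block, are Dnaja1, Dnajb1, Bag3, Stip1 and Hsp90ab1.

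None of the Hsp70 genes of other compartments or of distant relationship was called in limma. Of 6 such genes 5 were tested, 1 had an unadjusted p under 0.05, and the median log2 fold change was 0.10, which turned to -0.06 with quantile normalization and -0.02 with a common total for all libraries. Hspa5 (BiP) of the endoplasmic reticulum was 273, 276 and 382 FPKM on PCL, 302, 280 and 420 on ISB-P and 259 on TCP (log2 fold change 0.10, 95% interval -0.39 to 0.60, adjusted p = 0.937 in limma). Hspa9 (mortalin) of mitochondria was 130, 156 and 201 FPKM on PCL and 194, 229 and 366 on ISB-P (log2 fold change 0.66, adjusted p = 0.395). With the block Hspa9 was higher (adjusted p = 6.94e-04) and the other 4 were not called. Hyou1, the Hsp110 relative of the endoplasmic reticulum, had a log2 fold change of -0.14 (95% interval -0.50 to 0.22). The difference between cytosolic and other Hsp70 genes was not tested.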

How the data were processed

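RNA of rMSCs on ISB-P, PCL and TCP was prepared by the study with the TruSeq stranded mRNA kit and sequenced as paired ends. The submitters' processing notes name bcl2fastq 2.20.0.422, cutadapt 1.18, TopHat2 2.0.13, Cuffdiff 2.2.1 and the rn5 build. The methods name ExDEGA. The authors deposited 1 value per gene and library, read here as FPKM because the values are not whole, their sums differ and Cuffdiff reports FPKM. The unit, annotation and strand setting are not given in the sources used here. Depth is unknown, and precision rests on the 3 libraries per film. Values were used as deposited in limma 3.58.1 under R 4.3.3 (trend fitted to the variance, 1 FPKM added before log2). The fit was also run on simulated data, in which noise was independent between libraries for the fit without the block. That setting lacks the replicate order seen on both films, so it does not show how this order affects the calls. The replicate number entered as a block in an alternative. It comes from the labels, which do not say whether same-numbered libraries share a culture or batch. Deviations of same-numbered film libraries from their film means correlated across genes at r = 0.887, 0.431 and 0.867. Those of differently numbered libraries correlated at -0.836 to 0.177. Deviations within a film are not independent of each other, so these values do not settle whether the numbers pair the libraries. Comparisons with TCP are ratios. Members, partner lists and markers were chosen with earlier results of these data known. Named were all members, called partners with up to 4 others per group by size of change, and the 4 genes most like each of 5 members. Dnajc2, Bag1, Hspbp1, Stub1, Hspa5, Hspa9 and Hyou1 lie outside this rule and were named after their values were seen. Other scalings, filters, pseudocounts, variance models, library sets and the summed paralogs were tried. Motif searches and figures used Python 3.11.15, with matplotlib 3.10.9, and sequences are from RefSeq (GRCr8).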

Additional observations from a re-analysis of the deposited data

How the results depend on the processing

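No tested member changed direction under the alternatives in which it was fitted, 18 for Hspa1a and Hspa1b, 19 for Hspa1l and Hspa2 and 20 for Hspa8, Hspa14, Hspa4 and Hsph1, of which 4 (the replicate block with each other scaling or with Hspa1a and Hspa1b summed) were chosen after seeing the data. Hspa1a, Hspa1b and Hsph1 kept an adjusted p under 0.05 wherever they were fitted, at most 0.0453, 0.0215 and 0.0489. The replicate block made 1 member lower, Hspa14, as did each of the 4 added fits, and it raised the calls over all genes from 104 higher and 59 lower to 1228 and 1079, over partner genes from 5 to 15 higher and from 0 to 1 lower, and over Hsp70 genes of other compartments from 0 to 1 higher. It changed no other call among the members than those of Hspa4 and Hspa14. The block with quantile normalization also made Hspa2 higher (adjusted p = 0.0392), and Hyou1 was lower with the block under that setting and under scaling to a common total. When each film library was left out in turn, Hspa8 lost its call without PCL replicate 2 and without ISB-P replicate 2. Hspa1l, which passed the filter only through ISB-P, is not counted here. Over all tested genes these fits called 14 to 82 higher and 6 to 31 lower, and among partner genes 1 to 4 higher. A filter of 5 FPKM left 61 genes higher and 24 lower, upper quartile scaling left 39 lower, and the fit without a mean-variance trend left 38 lower. A common total for all libraries left 70 genes higher and 70 lower (714 and 2113 with the block) and moved the median log2 fold change of all genes from 0.02 to -0.09. Without a filter 3 partner genes were higher. With a pseudocount of 0.1, 4 members were over 2-fold lower on PCL than on TCP, in place of 2. Under the same setting 7 members were over 2-fold higher on ISB-P than on TCP, in place of 5. The cause of these shifts was not tested. With no read counts, nothing can be said of members near 0 FPKM beyond their values.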
